A study of Homo sapiens with 6 samples.

Results

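The genes described here encode the machinery that carries newly made proteins into the endoplasmic reticulum (ER) and on to the Golgi: the COPII and COPI vesicle coats, their ARF and SAR1 GTPases, the translocon and its partners, cargo receptors, golgins and the COG tether. They were picked by a rule on gene symbols from the array platform's annotation, and no measured value entered the rule. The set itself was chosen with earlier results of these data known. The choice took 63 genes of 19775 that have at least 1 probe set naming a single gene, and these 63 genes have 162 probe sets. Expression was measured in the line MDA-MB-231, which was grown from a human breast tumour and lacks the estrogen receptor. One group of 3 samples was transfected with an siRNA against LSD1 and the other group of 3 with a control siRNA, each hybridised to 1 Affymetrix array. RNA was taken at day 6 after 2 rounds of transfection in both groups, and 2.5 ug of total RNA was used per array. LSD1 is a histone demethylase encoded by KDM1A, and the study set out to find expression changes that follow its depletion. The siRNA sequences and the number of different siRNAs per target are not stated in the labels, and the series describes the 3 samples of a group as biological replicates.

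Proteins bound for secretion enter the ER through the SEC61 channel and leave it in vesicles coated with COPII. The GTPase SAR1 starts the coat, SEC23 and SEC24 form its inner layer with SEC24 binding the cargo, and SEC31 with SEC13 forms the outer cage. Vesicles coated with COPI, a complex called coatomer that ARF GTPases recruit, return escaped ER proteins from the Golgi, and golgins and the COG complex tether vesicles to Golgi membranes. Secretory cells raise much of this machinery through the unfolded protein response, in which the sensor IRE1, encoded by ERN1, activates the transcription factor XBP1.

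The arrays gave linear signals for 54675 probe sets, with a 2% trimmed mean of 500.1 on all 6. KDM1A had signals of 291, 184 and 228 with LSD1 siRNA, against 2540, 2493 and 2295 with control siRNA. All 3 arrays with LSD1 siRNA lay below all 3 controls, a log2 change of -3.32 with a standard error (SE) of 0.13 (limma adjusted p = 1.46e-08). The 3' to 5' signal ratio of ACTB, a measure of RNA integrity, was 1.33 to 1.39 with LSD1 siRNA and 1.33 to 1.74 with control siRNA, and control replicate 1 was the array at 1.74. Of the markers of the line, VIM, CD44, EGFR and KRT18 had mean signals of 3959 or more in both groups, while ESR1 had 75.7 with LSD1 siRNA and 59.1 with control siRNA. EPCAM, on the list of markers that should be low, was well measured at 1644 with LSD1 siRNA and 1658 with control siRNA. ERBB2, also on that list, was at 507 with LSD1 siRNA and 581 with control siRNA. In the same order CDH1 was at 129 and 163 and PGR at 29.5 and 60.7. All 5 genes on that list, ESR1 among them, passed the expression filter. Summed over 9 leukocyte markers the signal was 503 to 627 with LSD1 siRNA and 481 to 519 with control siRNA. The defining marker PTPRC was below the expression filter, as were CD3G, LCP2 and TYROBP, but 5 of the 9 passed it. Means with LSD1 siRNA and control siRNA were 189 and 137 for CSF1R, 114 and 119 for CD79A and 70.5 and 58.5 for ITGAM. For CD3E they were 51.3 and 69.7, and for CD14 47.5 and 43.9. Summed over 5 fibroblast markers the signal was 568 to 751 with LSD1 siRNA and 547 to 632 with control siRNA. LUM, below the filter, was at 86.3 to 101 with LSD1 siRNA and 0.518 to 4.58 with control siRNA. COL1A1, the brightest, was at 406 to 518 with LSD1 siRNA and 430 to 523 with control siRNA. Means with LSD1 siRNA and control siRNA were 25.7 and 39.7 for DCN and 47.7 and 39.8 for PDGFRB. For COL3A1, also below the filter, they were 27.3 and 19.9. Summed over 4 endothelial markers the signal was 208 to 254 with LSD1 siRNA and 249 to 285 with control siRNA. The part of these markers and of the ACTB ratio in the results was not tested.

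More of the transport genes were higher than lower with LSD1 siRNA. Changes are differences of log2(signal + 15), LSD1 siRNA minus control siRNA. Each gene was represented by its brightest probe set and kept if its mean log2(signal + 15) exceeded the 40th percentile over the array. On the signal scale that cutoff is about 28.0. Of the 63 genes, 60 passed this filter, and SEC16B, SEC31B and TMED6 did not. Of the 60, 27 were higher and 9 were lower at an adjusted p under 0.05, and 24 did not pass that test. Over all 13825 genes tested, 19.8% were higher and 21.3% were lower, and 41.0% changed either way. The share of transport genes that were higher, 45.0%, is above that background, and the share that were lower is below it. That difference was not tested, and the genes were chosen with earlier results of these data known. The median log2 change of the transport genes was 0.14, against -0.02 over all genes tested. Their arrays did not overlap between the groups for 39 of 60 genes, or 65.0%, against 50.4% of all genes. The transport genes were bright, with a median signal of 3154 against 558 over all genes tested. Among genes above the 60th percentile, 28 of 58 transport genes were higher and 10 lower, where 25.4% of all such genes were higher and 28.2% lower. Without control replicate 1, the array with the high ACTB ratio, 25 were higher and 6 lower, and without LSD1 siRNA replicate 2 or 3 only 5 were lower. In RNA from whole cultures, fewer cells of a kind and less RNA per cell cannot be told apart. Values on every array are given for the 6 genes past the test with a log2 change of 0.5 or more in size; those given for other genes were picked after the values were seen.

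**Figure D1:**
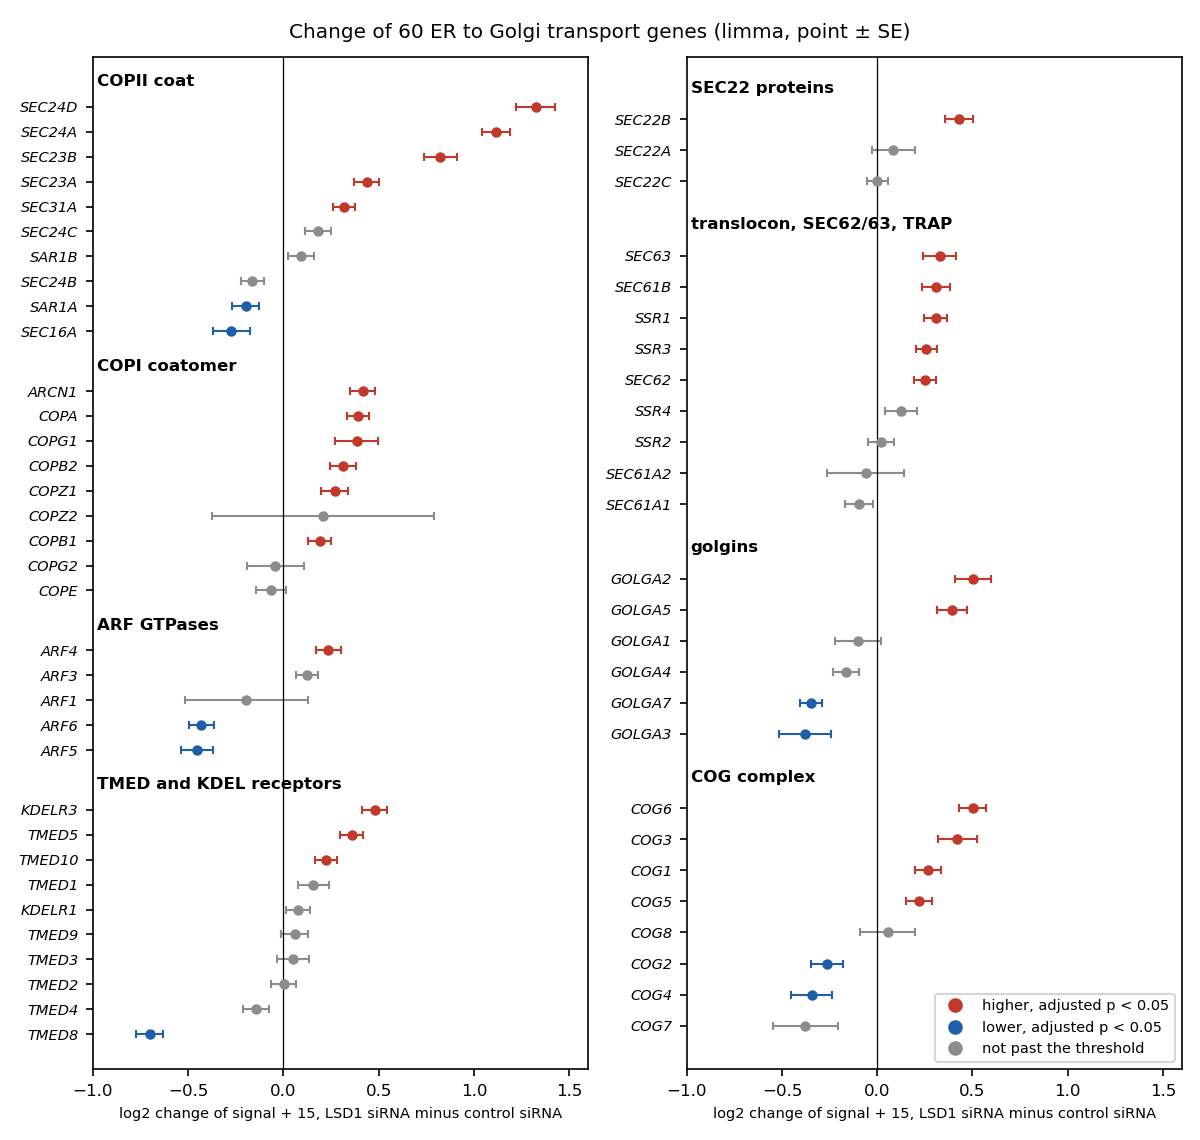
The log2 change of signal + 15, LSD1 siRNA minus control siRNA (x axis), is plotted for the 60 transport genes that passed the filter, grouped by role, as a point with its SE from limma (n = 3 arrays a group). SEC24D (1.32), SEC24A (1.11) and SEC23B (0.82) lie farthest to the right, and TMED8 (-0.70) lies farthest to the left.

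Promoter sequences were read for these genes because factors of the unfolded protein response bind known DNA elements. RefSeq promoters of build GRCh38.p14, 250 bases before to 50 after the gene start, were matched by symbol for 56 of the 63 genes; SEC24D was among the 7 not matched. The core of the unfolded protein response element, TGACGTGG, was searched on both strands and occurred in 12 of 56 promoters (21.4%), against 0.795% of all 27305 promoters of that length and 0.895% of 11170 promoters of genes tested. Among the transport genes it occurred in 8 of 25 promoters of genes that were higher (32.0%), 2 of 20 that did not pass (10.0%) and 1 of 8 that were lower (12.5%). The shorter ACGTGG, which lies within that core, occurred in 27 of 56 promoters (48.2%), against 9.91% of all promoters: in 17 of 25 genes that were higher (68.0%), 7 of 20 that did not pass (35.0%) and 2 of 8 that were lower. Over all genes tested TGACGTGG occurred in 28 of 2248 promoters of higher genes, 19 of 2480 of lower genes and 53 of 6442 of those that did not pass, and ACGTGG in 269 of 2248 promoters of higher genes, 350 of 2480 of lower genes and 778 of 6442 of those that did not pass. The ER stress response element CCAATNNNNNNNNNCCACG occurred in 0 of 56 promoters and in 22 of 27305 overall. CCACG, which overlaps ACGTGG on the other strand, occurred in 76.8% of the transport gene promoters, against 37.9% of all promoters and 48.2% of those of genes tested. Its split by call did not follow that of the longer motifs: 19 of 25 genes that were higher held it, 17 of 20 that did not pass and 5 of 8 that were lower. The CCAAT box occurred in 32.1% against 35.7% of all promoters, and the NF-kappaB motif GGGANNNTCC in 3.57% against 5.07%. These matches describe letters in a window and were not tested.

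The 13 matches to TGACGTGG are shown with 12 bases on each side, each read on the strand that holds the core, so that the shared letters, in capitals, can be compared with the flanks. The first 9 belong to genes that were higher, the next 2 to ARF1 and GOLGA1, which did not pass, then SEC16A, which was lower, and SEC16B, which was below the filter.
COPA, chr1:160343226-160343257, - strand: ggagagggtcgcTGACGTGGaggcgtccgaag
COPB1, chr11:14499840-14499871, + strand: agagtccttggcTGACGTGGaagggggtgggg
COPB2, chr3:139389824-139389855, + strand: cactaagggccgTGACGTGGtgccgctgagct
COPB2, chr3:139389631-139389662, + strand: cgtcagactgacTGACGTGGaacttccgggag
GOLGA5, chr14:92794114-92794145, - strand: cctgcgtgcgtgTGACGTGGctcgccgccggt
KDELR3, chr22:38468038-38468069, - strand: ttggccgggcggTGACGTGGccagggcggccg
SEC23A, chr14:39103220-39103251, - strand: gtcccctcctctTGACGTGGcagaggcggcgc
SEC24A, chr5:134648594-134648625, + strand: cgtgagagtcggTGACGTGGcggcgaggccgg
SEC62, chr3:169966778-169966809, - strand: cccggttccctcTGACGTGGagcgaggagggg
ARF1, chr1:228082680-228082711, + strand: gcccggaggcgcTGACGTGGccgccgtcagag
GOLGA1, chr9:124941247-124941278, - strand: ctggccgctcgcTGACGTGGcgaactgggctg
SEC16A, chr9:136484706-136484737, + strand: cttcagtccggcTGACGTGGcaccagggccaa
SEC16B, chr1:177984296-177984327, - strand: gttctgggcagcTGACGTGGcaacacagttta

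In SEC24A the core lies 179 to 172 bases before the start, and in SEC23A it spans the start itself. COPB2 holds 2 copies on the opposite strand, 163 to 156 bases before the start and 31 to 38 bases after it. SEC24A and COPB2 are shown whole as promoters of genes that were higher and hold the core, and SEC23B, which rose by 0.82, as one that holds neither TGACGTGG nor ACGTGG. They are written along the gene's own strand, and capitals mark ACGTGG or TGACGTGG, or their reverse complements CCACGT and CCACGTCA.
SEC24A, chr5:134648535-134648834, + strand: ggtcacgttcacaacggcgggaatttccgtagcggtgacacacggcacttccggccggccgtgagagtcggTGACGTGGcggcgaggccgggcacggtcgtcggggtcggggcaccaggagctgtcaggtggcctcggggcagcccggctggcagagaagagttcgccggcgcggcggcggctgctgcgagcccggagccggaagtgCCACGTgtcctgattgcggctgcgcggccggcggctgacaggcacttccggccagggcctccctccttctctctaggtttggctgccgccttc
COPB2, chr3:139389631-139389930, - strand: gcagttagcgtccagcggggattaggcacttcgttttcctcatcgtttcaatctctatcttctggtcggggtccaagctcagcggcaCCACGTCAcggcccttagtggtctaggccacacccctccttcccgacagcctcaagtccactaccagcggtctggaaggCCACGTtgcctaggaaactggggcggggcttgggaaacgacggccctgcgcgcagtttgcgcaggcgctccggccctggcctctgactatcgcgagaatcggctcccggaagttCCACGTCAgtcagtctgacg
SEC23B, chr20:18507298-18507597, + strand: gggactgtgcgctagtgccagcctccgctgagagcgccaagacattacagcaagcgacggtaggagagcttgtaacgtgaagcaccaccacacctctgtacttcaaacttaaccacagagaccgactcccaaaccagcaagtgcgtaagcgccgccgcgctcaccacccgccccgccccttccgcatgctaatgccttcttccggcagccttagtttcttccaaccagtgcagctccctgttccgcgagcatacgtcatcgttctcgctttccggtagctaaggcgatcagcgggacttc

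The inner COPII coat held the highest rises. SEC24D, a cargo-binding subunit, had signals of 1773, 1788 and 1788 with LSD1 siRNA, against 694, 606 and 828 with control siRNA. The groups were far apart, at 2.51 times the control mean, and the log2 change was 1.32 with an SE of 0.10 (adjusted p = 1.42e-06), the 200th highest of 13825 genes. SEC24A, its paralogue, had 2297, 2511 and 2323 with LSD1 siRNA, against 1148, 1005 and 1120 with control siRNA. Every array with LSD1 siRNA again lay above every control, with a log2 change of 1.11, an SE of 0.07 and an adjusted p of 5.23e-07. SEC23B, which activates the GTPase of SAR1 and pairs with SEC24, had 5693, 4997 and 5632 with LSD1 siRNA, against 3408, 2688 and 3133 with control siRNA. That is a log2 change of 0.82 with an SE of 0.09 (adjusted p = 1.68e-05) and no overlap. Past the test with a log2 change of 0.5 or more were 10.3% of all genes, and 5 of the 60 transport genes: these 3, GOLGA2 and COG6.

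The remaining coat genes gave smaller values or values below 0. SEC23A had signals of 7742, 7909 and 7890 with LSD1 siRNA, against 5476, 5616 and 6328 with control siRNA, a rise of 0.44 on the log2 scale (SE 0.07, adjusted p = 0.000227). SEC31A, of the outer cage, averaged 7993 ± 239 with LSD1 siRNA and 6412 ± 233 with control siRNA (SD, n = 3 each) and rose by 0.32 (adjusted p = 0.000908). Neither gene's groups overlapped. SEC24C averaged 2072 ± 107 with LSD1 siRNA and 1826 ± 86.3 with control siRNA, a log2 value of 0.18 that just missed the threshold (adjusted p = 0.0502). SEC24B averaged 2970 ± 80.8 with LSD1 siRNA and 3330 ± 177 with control siRNA, a value of -0.16 that also just missed it (adjusted p = 0.0540). In neither gene did the groups overlap. SAR1B, a GTPase that starts the coat, was at 0.09 (adjusted p = 0.328), while SAR1A fell by 0.20 (adjusted p = 0.0439). SEC16A, which organises ER exit sites, had 1960, 1502 and 1484 with LSD1 siRNA, against 1975, 2022 and 1944 with control siRNA. Its groups overlapped through LSD1 siRNA replicate 1, and the log2 change was -0.27 (SE 0.10, adjusted p = 0.0413). Of the 10 COPII genes tested, 5 of 10 were higher and 2 of 10 lower, against 19.8% higher and 21.3% lower over all genes tested. The share lower is near that background.

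**Figure D2:**
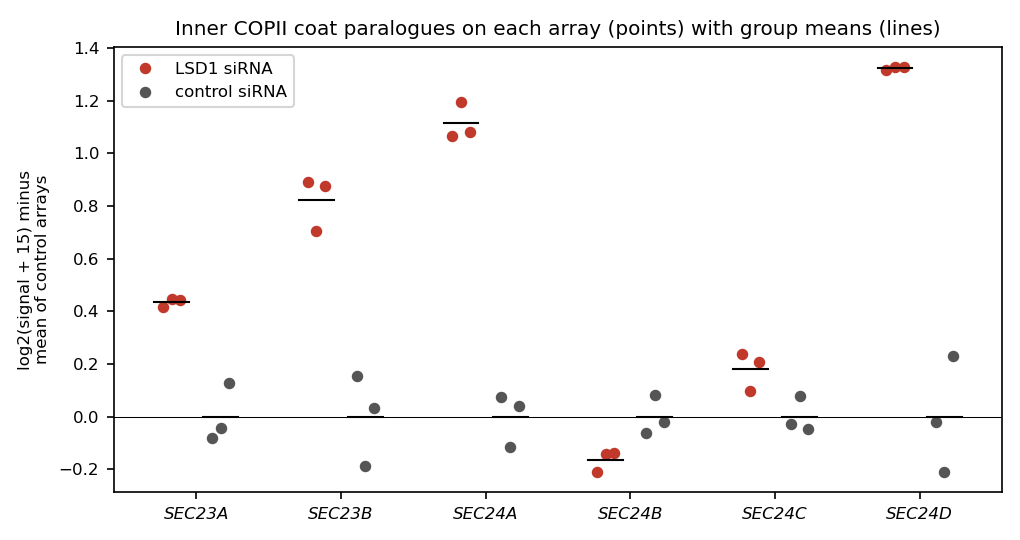
Each point is 1 array's log2(signal + 15) minus the mean of the 3 control arrays (y axis) for the 6 inner COPII coat genes, with LSD1 siRNA left of control siRNA and lines at group means. The LSD1 siRNA points of SEC24D and SEC24A lie above 1, those of SEC24C average 0.18, and those of SEC24B below 0.

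Ratios between paralogues of the inner coat were also taken within each array, to set one gene's change against the other's. The log2 ratio of SEC24A to SEC24B was -0.32, -0.26 and -0.38 with LSD1 siRNA, against -1.46, -1.80 and -1.54 with control siRNA, a difference of 1.28 with an SE of 0.11. For SEC24C over SEC24D the mean ratio was 0.21 with LSD1 siRNA and 1.36 with control siRNA, and for SEC23A over SEC23B it was 0.53 with LSD1 siRNA and 0.92 with control siRNA. The groups did not overlap in any of these 3 ratios. SEC24D over SEC24A averaged -0.41 with LSD1 siRNA and -0.62 with control siRNA, and those groups overlapped (exact two-sided permutation p = 0.2). The full set of 17 pairs went beyond the inner coat, to SAR1, coatomer, SEC61A, TMED, ARF and SEC22 genes among others. Of these, 13 had both genes above the filter, and 9 gave ratios that did not overlap between groups. Taken singly, 50.4% of all genes tested did not overlap, and no such share was computed for ratios. Each of the 9 pairs had an exact permutation p of 0.1, the smallest that 3 against 3 arrays allow, and 0.144 after adjustment over the 13. This test could therefore not pass the threshold in any pair.

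Some COPII values changed with the probe sets used, and some calls changed with 1 array left out. With the mean of all probe sets SEC24D was at 0.56 (adjusted p = 0.0299) and SEC24A at 0.71 (adjusted p = 0.000154), and with the mean of those above the filter SEC24D was at 0.80. SAR1A passed when control replicate 3 was left out, but not without control replicates 1 and 2 (0.141 and 0.137) or LSD1 siRNA replicates 1, 2 and 3 (0.149, 0.0788 and 0.0690), nor when its probe sets were averaged (-0.07). Without LSD1 siRNA replicates 2 and 3 the log2 change of SAR1A was -0.21 and -0.22, no smaller in size than with all arrays (-0.20). SEC16A did not pass without control replicate 1 (0.0868), control replicate 2 (0.106), control replicate 3 (0.0593), LSD1 siRNA replicate 2 (0.152) or LSD1 siRNA replicate 3 (0.162). SEC24B passed without control replicate 1 (0.0438), and SEC24C without control replicate 2 (0.0406) or LSD1 siRNA replicate 2 (0.0445).

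Most coatomer subunit genes were higher, each by a small amount. The complex has 7 subunits, and the genes for 6 of the 7 were higher: COPA, COPB1, COPB2, COPG1, COPZ1 and ARCN1, for alpha, beta, beta prime, gamma, zeta and delta. ARCN1 had signals of 4676, 5050 and 4938 with LSD1 siRNA, against 3440, 3646 and 3908 with control siRNA, a log2 change of 0.42 with an SE of 0.07 (adjusted p = 0.000305). COPA had 4077, 4029 and 4185 with LSD1 siRNA, against 2976, 3193 and 3194 with control siRNA, a log2 change of 0.39 with an SE of 0.06 (adjusted p = 0.000219). Neither gene's groups overlapped, and ARCN1 stood at 133% and COPA at 131% of the control mean. COPB2 rose by 0.31 (adjusted p = 0.00311), COPZ1 by 0.27 (adjusted p = 0.0108) and COPB1 by 0.19 (adjusted p = 0.0254), each without overlap. COPG1 rose by 0.38 (adjusted p = 0.0173), and its groups overlapped, since control replicate 2 at 861 lay above LSD1 siRNA replicate 2 at 859. COPE, for the epsilon subunit, averaged 3090 ± 310 with LSD1 siRNA and 3225 ± 144 with control siRNA, which gave -0.07 and was not past the test. The second genes for gamma and zeta, COPG2 (-0.04, SE 0.15) and COPZ2 (0.21, SE 0.58), did not pass either, and COPZ2 was dim, at 41.4 with LSD1 siRNA and 35.1 with control siRNA. In all 6 of 9 COPI genes were higher and none lower, against 19.8% higher and 21.3% lower over all genes tested.

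Some of these calls were lost with 1 array left out, a fit that has fewer arrays. COPB1 lost its call without control replicate 2 (adjusted p = 0.116), at a log2 change of 0.15. It also lost its call without LSD1 siRNA replicates 1, 2 and 3 (0.0656, 0.0908 and 0.0707), although its change stayed at 0.18 to 0.20. COPG1 lost its call without control replicate 1 (0.0742), LSD1 siRNA replicate 1 (0.070) and LSD1 siRNA replicate 3 (0.0529), and COPZ1 without control replicate 2 (0.0508) and LSD1 siRNA replicate 1 (0.0513). Averaged over all probe sets COPB1 was at -0.16 and COPB2 at -0.04, and neither passed. Each has 1 probe set below the filter, with signals of 6.56 to 14.5 with LSD1 siRNA and 15.8 to 51.2 with control siRNA for COPB1. Over probe sets above the filter COPB1 was at 0.21 and COPB2 at 0.31, both past the test.

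The ARF GTPases, which recruit coatomer and other coats, split. ARF4, which acts at the early Golgi, averaged 23396 ± 1152 with LSD1 siRNA and 19855 ± 693 with control siRNA and rose by 0.24 (adjusted p = 0.0114). ARF5 had 1050, 1070 and 936 with LSD1 siRNA, against 1424, 1496 and 1280 with control siRNA. It fell by 0.45 (SE 0.08, adjusted p = 0.00095). ARF6, which works at the plasma membrane and endosomes and not in COPI transport, averaged 7504 ± 143 with LSD1 siRNA and 10146 ± 785 with control siRNA and fell by 0.43 (adjusted p = 0.000253), or by 0.22 when its 4 probe sets were averaged. None of these 3 had overlapping groups. ARF3 was at 0.12 and did not pass, but passed at 0.24 when its 3 probe sets were averaged (adjusted p = 0.0303). ARF1 has 1 probe set naming a single gene, with signals of 39.4 to 75.3 with LSD1 siRNA and 44.6 to 109 with control siRNA, and its value of -0.19 (SE 0.32) did not pass. ARF4 lost its call without control replicate 2 (adjusted p = 0.0522), LSD1 siRNA replicate 2 (0.0656) and LSD1 siRNA replicate 3 (0.0606).

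Of 10 cargo receptor genes, 3 were higher and 1 lower, near the 19.8% higher and 21.3% lower over all genes for so few genes. KDELR3, a receptor that returns ER residents carrying the KDEL signal, had 2188, 2122 and 2355 with LSD1 siRNA, against 1613, 1530 and 1624 with control siRNA. It rose by 0.48 (SE 0.07, adjusted p = 0.000122), with no overlap, while its paralogue KDELR1 was at 0.08 (adjusted p = 0.362). That the 2 paralogues differ was not tested. Of the TMED genes, which encode the p24 family of vesicle cargo proteins, 2 of 8 were higher and 1 of 8 lower. TMED5 rose by 0.36 (adjusted p = 0.000512) and TMED10 by 0.22 (adjusted p = 0.00968), while TMED10's partner TMED2 averaged 17764 ± 812 with LSD1 siRNA and 17756 ± 868 with control siRNA. TMED1 (0.16), TMED9 (0.06), TMED3 (0.05) and TMED4 (-0.14) did not pass. TMED8 had the lowest value of all 60: signals of 2458, 2657 and 2464 with LSD1 siRNA, against 3908, 3957 and 4522 with control siRNA. The groups were well apart, at 61.2% of the control mean, with a log2 change of -0.70, an SE of 0.07 and an adjusted p of 1.16e-05. Past the test with a log2 change of -0.5 or less were 10.1% of all genes, and TMED8 alone among the 60. With the mean of all probe sets TMED8 was at -0.30 (adjusted p = 0.0290). When its 3 sets were tested one by one, 1 passed, and the others were at -0.13 (adjusted p = 0.366) and -0.06 (adjusted p = 0.880). With the mean of all probe sets TMED10 (0.24, adjusted p = 0.141) and TMED5 (0.28, adjusted p = 0.0540) did not pass. Over its 4 sets above the filter TMED5 was at 0.39 and passed (adjusted p = 0.000515). TMED7 occurs only on probe sets naming several genes and was not analysed here.

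**Figure D3:**
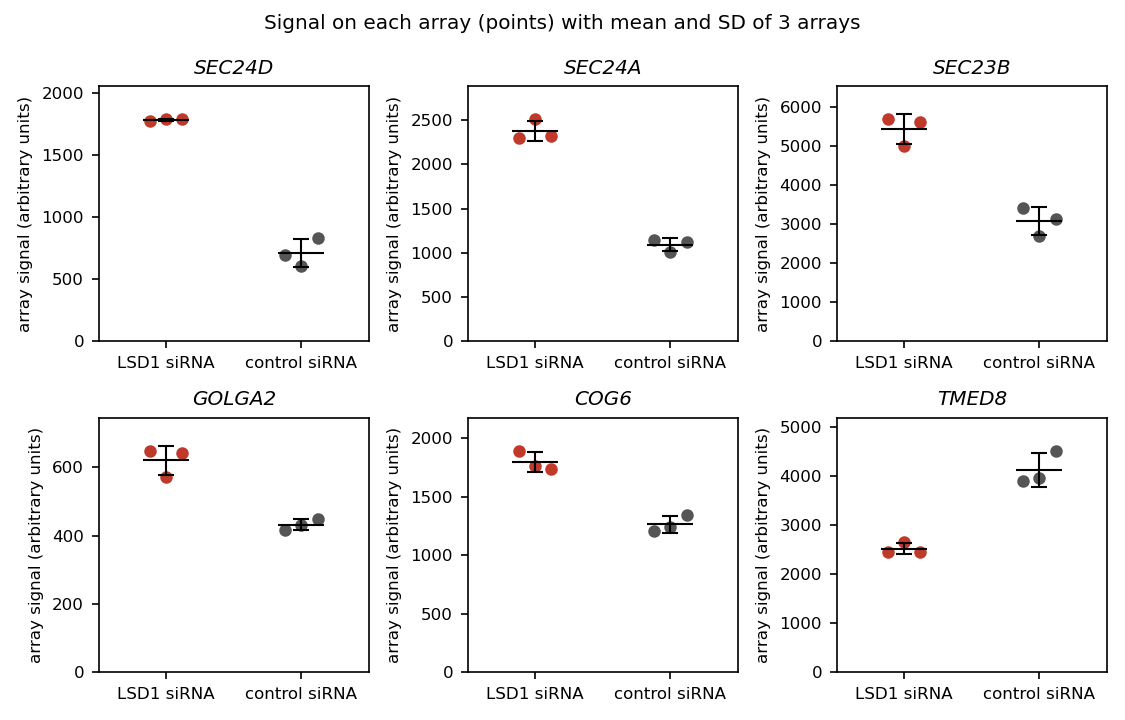
The signal on each array (y axis, arbitrary linear units from 0) is shown for the 6 transport genes past the test with a log2 change of at least 0.5 in size, with the mean and SD of 3 arrays, LSD1 siRNA left of control siRNA. All 3 LSD1 siRNA points lie above the controls for SEC24D, SEC24A, SEC23B, GOLGA2 and COG6 and below them for TMED8.

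Of the SEC22 proteins, SEC22B is the SNARE that fuses vesicles between the ER and the Golgi. It had signals of 4923, 5013 and 5215 with LSD1 siRNA, against 3749, 3382 and 4129 with control siRNA, and rose by 0.43 (SE 0.07, adjusted p = 0.000584). The groups did not overlap, although a dimmer probe set of the gene was at 0.06 and the mean of both was 0.25. SEC22A (0.08) and SEC22C (0.00) did not pass.

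At the entry to the ER, 5 of 9 genes were higher and none lower, against 19.8% higher and 21.3% lower over all genes tested. SSR1, which encodes the alpha subunit of the translocon-associated TRAP complex, averaged 16718 ± 770 with LSD1 siRNA and 13513 ± 354 with control siRNA and rose by 0.31 (SE 0.06, adjusted p = 0.00168). All 6 of its probe sets were past the test when each was tested on its own, at 0.31 to 0.84, so its brightest probe set gave the smallest value, and their mean was 0.57. SSR3, the gamma subunit, rose by 0.26 (adjusted p = 0.00272), and its 4 probe sets lay between -0.02 and 0.94. SSR2 (0.02) and SSR4 (0.12), the beta and delta subunits, did not pass. SEC61B, the beta subunit of the channel, had 12684, 11632 and 10927 with LSD1 siRNA, against 10066, 9679 and 8697 with control siRNA, and rose by 0.31 (adjusted p = 0.00589) without overlap. SEC63, which recruits the chaperone BiP to the channel, rose by 0.33 (adjusted p = 0.0109), and its partner SEC62 by 0.25 (adjusted p = 0.00400). SEC61A1, the pore subunit, was at -0.10 (adjusted p = 0.329), and SEC61A2 at -0.06 did not pass.

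Probe sets of several entry genes disagreed. SEC61A1 was at 0.23 (adjusted p = 0.0269) with the mean of both its probe sets. Its dimmer set, with the x suffix that marks possible cross-hybridisation, was at 0.56 (adjusted p = 0.00511). SEC62 was at -0.04 with the mean of 5 probe sets. Its 2 brightest sets were at 0.25 and 0.29, and a dimmer one, at 468 with LSD1 siRNA and 626 with control siRNA, was at -0.41 (adjusted p = 0.00503). SEC63 was at 0.05 with the mean of its 5 sets (adjusted p = 0.761) and had an adjusted p of 0.0536 without LSD1 siRNA replicate 3. SEC61B did not pass when averaged with its second set, which was below the filter (0.22, adjusted p = 0.428), and passed on the set above the filter alone (0.31, adjusted p = 0.00789).

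Of the golgin genes, 2 of 6 were higher and 2 of 6 lower, where 19.8% of all genes were higher and 21.3% lower, and so few genes show nothing particular to golgins. GOLGA2, the golgin of the cis-Golgi matrix, had signals of 648, 571 and 642 with LSD1 siRNA, against 417, 432 and 449 with control siRNA. Its log2 change was 0.50 with an SE of 0.09 (adjusted p = 0.00103), with no overlap. With the mean of its 4 probe sets GOLGA2 was at 0.37 (adjusted p = 0.0168). When they were tested one by one 2 passed, and the others were at 0.27 (adjusted p = 0.333) and 0.26 (adjusted p = 0.0780). GOLGA5 averaged 3626 ± 308 with LSD1 siRNA and 2758 ± 196 with control siRNA and rose by 0.39 (adjusted p = 0.00154). GOLGA7, a partner of an enzyme that attaches palmitate to RAS, averaged 4000 ± 102 with LSD1 siRNA and 5093 ± 134 with control siRNA and fell by 0.35 (adjusted p = 0.000400). GOLGA3 had 1055, 903 and 880 with LSD1 siRNA, against 1438, 1368 and 949 with control siRNA, so its groups overlapped, and its value was -0.38 (SE 0.14, adjusted p = 0.0439). A second probe set of GOLGA3 averaged 514 with LSD1 siRNA and 371 with control siRNA and was at 0.47 (adjusted p = 0.0161), so the direction of this gene depends on the probe set, and the mean of its 3 sets was -0.13. It also lost its call without control replicate 1 (0.173), control replicate 2 (0.153), LSD1 siRNA replicate 2 (0.111) and LSD1 siRNA replicate 3 (0.134). GOLGA1 (-0.10) and GOLGA4 (-0.16) did not pass, and GOLGA4 passed without control replicate 1 (0.0429).

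The COG complex, a tether for vesicles recycling within the Golgi, has 8 subunits, of which 4 of 8 were higher and 2 of 8 lower. Over all genes tested 19.8% were higher and 21.3% lower, so the share lower is near that background. COG6 had signals of 1893, 1759 and 1734 with LSD1 siRNA, against 1207, 1239 and 1348 with control siRNA. It rose by 0.50 (SE 0.07, adjusted p = 0.00015) without overlap. COG3 rose by 0.42 (adjusted p = 0.00522), COG1 by 0.27 (adjusted p = 0.00771) and COG5 by 0.22 (adjusted p = 0.0189). COG4 averaged 788 ± 97.0 with LSD1 siRNA and 1003 ± 104 with control siRNA and fell by 0.35 (adjusted p = 0.0213), and COG2 fell by 0.26 (adjusted p = 0.0253). COG7 was at -0.38 with an SE of 0.17 and did not pass (adjusted p = 0.0999), and COG8 was at 0.05. Lobe A of the complex, COG1 to COG4, held members of both directions, where 41.0% of all genes tested changed either way. COG2 lost its call without control replicate 1 (0.107), LSD1 siRNA replicate 2 (0.104) and LSD1 siRNA replicate 3 (0.0548), COG4 without control replicate 1 (0.0918) and LSD1 siRNA replicate 1 (0.0881), and COG5 without control replicate 1 (0.0689), LSD1 siRNA replicate 2 (0.0598) and LSD1 siRNA replicate 3 (0.0709). When probe sets were averaged, COG1 (0.18, adjusted p = 0.446) and COG2 (-0.30, adjusted p = 0.128) did not pass. Over sets above the filter COG1 still did not (0.30, adjusted p = 0.0624), while COG2 did (-0.26, adjusted p = 0.0270).

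Tested one by one, 140 of the 162 probe sets lay above the filter. Of these, 53 were higher and 11 lower, against 17.0% higher and 17.4% lower over all 27092 probe sets tested. SEC62 and GOLGA3 were the 2 genes with probe sets past the test in opposite directions. Some genes had 2 or more probe sets above the filter, all of them past the test in the same direction. These were SEC23A, SEC23B, SEC31A, COPB1, COPZ1, ARF4, COG5, GOLGA7 and SSR1.

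**Figure D4:**
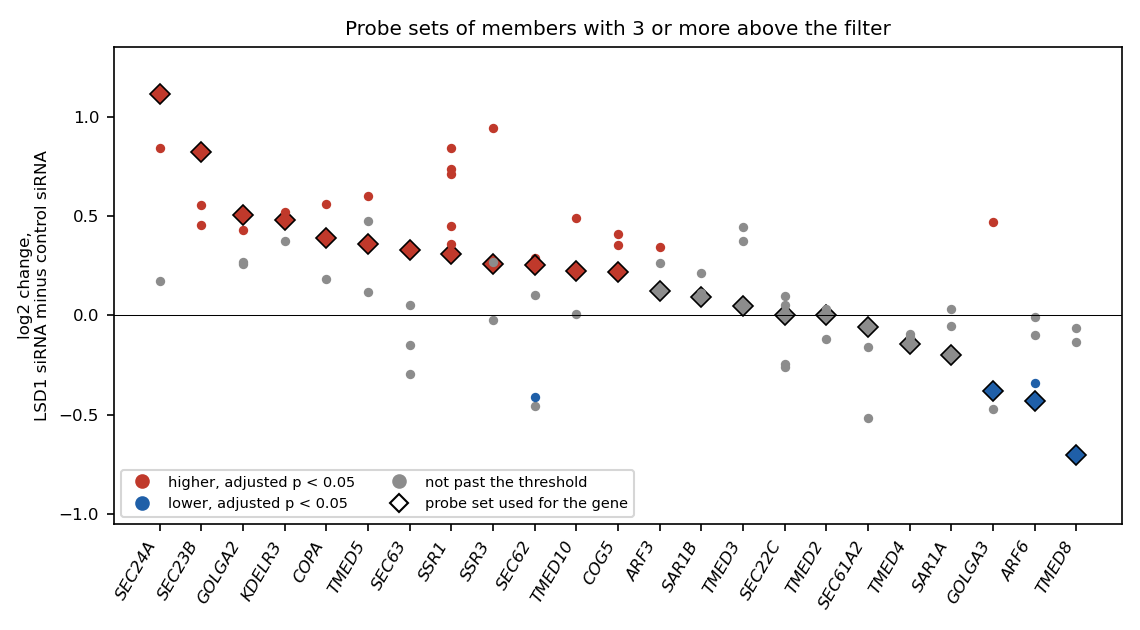
For the 23 transport genes with 3 or more probe sets above the filter, each point is the log2 change (y axis, LSD1 siRNA minus control siRNA) of 1 probe set tested on its own, and the diamond is the set used for the gene. All points of SSR1 and SEC23B lie above 0, while SEC62 and GOLGA3 have coloured points on both sides of 0.

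Partner genes outside the 63 were read in the same fit, in 5 lists. Of 23 unfolded protein response genes, 11 were higher and 5 lower, with a median log2 change of 0.14. Over all genes tested 19.8% were higher and 21.3% lower, so the count of rises was above that background and the count of falls was close to it. ERN1 averaged 703 ± 89.9 with LSD1 siRNA and 308 ± 57.1 with control siRNA and rose by 1.16 (adjusted p = 4.46e-05), or by 0.46 when its probe sets were averaged. DNAJB9, an ER co-chaperone gene, averaged 3366 ± 96.3 with LSD1 siRNA and 1650 ± 24.2 with control siRNA and rose by 1.02. XBP1 rose by 0.41 (adjusted p = 0.00245) and ATF6, another transcription factor of the response, by 0.29 (adjusted p = 0.00263). These 2 were named after their values were seen. The mean of all their probe sets was 0.68 for XBP1 and 0.47 for ATF6, and over sets above the filter XBP1 was at 0.41. SDF2L1, an ER chaperone-complex gene, fell by 0.55 and DDIT3, a stress transcription factor gene, fell by 0.28. Also lower, and named after their values were seen, were CALR (-0.30, adjusted p = 0.0471), ATF4 (-0.18, adjusted p = 0.0484) and PDIA6 (-0.16, adjusted p = 0.0459). Averaged over its probe sets CALR was at -0.05. DDIT3 lost its call without control replicates 1 and 2 (adjusted p = 0.0585 and 0.0991) and LSD1 siRNA replicates 1 and 3 (0.0832 and 0.0532).

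The counts in the remaining 4 lists lay near the shares over all genes tested, 19.8% higher and 21.3% lower. Of 20 ER exit partners, 4 were higher and 5 lower, with a median of 0.07: the cargo receptor gene MCFD2 rose by 0.79 and ERGIC2 by 0.41, while the lectin gene LMAN2 and the cargo adaptor gene CNIH4 each fell by 0.61. SEC13, the partner of SEC31A in the outer cage, was at -0.06 and did not pass, and was named after its value was seen. Of 21 ER entry partners, 4 were higher and 4 lower, with a median of -0.02. SRPRA, a receptor subunit for the signal recognition particle, rose by 0.47 and the signal peptidase gene SPCS3 by 0.45, while TRAM2 fell by 0.44 and SRP68 fell by 0.35. Of 19 tethers and SNAREs, 5 were higher and 3 lower, with a median of 0.02: the SNARE gene BET1 and the GTPase gene RAB2A each rose by 0.49, the SNARE gene BNIP1 fell by 0.48 and NSF fell by 0.25. Of 15 ARF regulators, 3 were higher and 4 lower, with a median of 0.01: ARFGAP3 rose by 0.58 and ARL1 by 0.41, while ARFGAP2 fell by 0.62 and CYTH2 fell by 0.54. With the mean of all probe sets LMAN2 (-0.23), NSF (-0.20), ARFGAP2 (-0.58) and CYTH2 (-0.20) did not pass, and MCFD2 was at 0.46 and BNIP1 at -0.29, both past the test. Over sets above the filter LMAN2 was at -0.61 and ARFGAP2 at -0.62, both past the test.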

How the data were processed

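Affymetrix arrays were processed with GCOS, Affymetrix Expression Console 1.1 and MAS5, per the submitters' processing notes. The deposited values are linear signal intensities per probe set, 1 column per array, and their 2% trimmed mean, computed here, was 500.1 on every array. The settings behind them are not given in the sources used here.

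Probe sets naming a single gene (41097 of 54675, where 1801 name several and 11777 are not listed) were used, the brightest for each gene. A set with the x suffix was taken only where a gene had no other. Signals were not rescaled; 15 was added before log2. Genes below the 40th percentile of mean log2(signal + 15) over the array were dropped. Then limma 3.58.1 in R 4.3.3 was run on the 6 arrays with lmFit and eBayes with an intensity trend. The test was two-sided, with Benjamini-Hochberg adjustment over 13825 genes at 0.05. The procedure was tested on simulated data in which 50 of 13825 genes were changed at each size, far fewer than were called here. It recovered 20.0% of 1.25-fold changes, 54.0% of 1.5-fold changes and 86.0% of 2-fold changes, with 6 false calls. Medians, overlaps and exact permutation tests were computed in Python 3.11.15 with scipy 1.17.1. The number of arrays limits the precision, since arrays give no read depth.

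Values on each array are given for members past the threshold with a log2 change of 0.5 or more in size, and each partner list gives the 2 higher and the 2 lower genes with the smallest p among those past it. The members, lists and pairs were chosen with earlier results of these data known. Replicate numbers showed no pairing of the arrays. Across genes, deviations from the group means had a correlation of at most 0.0264 in size for every pair across groups. These values do not tell whether the experiment matched the replicates. Alternatives changed the constant, filter, scaling, probe set rule, variance model and replicate block, and left out each array. KDELR2 and SEC61G are not analysed here. Promoters came from RefSeq (GRCh38.p14).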

Additional observations from a re-analysis of the deposited data

How the results depend on the processing

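Of the 36 transport genes past the test, 18 kept their call and sign in every alternative that gave a value (among them SEC24D, SEC24A, SEC23B, SEC23A, SEC31A, ARCN1, COPA, KDELR3, SSR1 and TMED8), and 33 kept their sign. Leaving out 1 array at a time gave 22 to 27 genes higher and 5 to 8 lower, 2316 to 2727 higher and 2516 to 3003 lower over all genes, a median of 0.13 to 0.17 and a KDM1A change of -3.48 to -3.17. With the replicate number as a block, 26 were higher and 9 lower. COPB1 and SAR1A (adjusted p = 0.0528 for both) lost their calls, GOLGA4 gained one (0.0442), and the replicate numbers showed no pairing of the arrays. Lower genes numbered 4 without the intensity trend, 4 with an unmoderated test and 5 with the mean of all probe sets. Testing every probe set gave 53 higher of the transport genes' sets, and 4608 higher and 4701 lower of all sets. With the mean of all probe sets COPB1 was at -0.16 and COPB2 at -0.038; SEC62 was at -0.044 and SEC61A1 at 0.23 both with that mean and with the mean of sets above the filter, a rule added after seeing the data that gave 26 higher and 7 lower. Quantile normalization and median centring moved the median of all genes by under 0.1. Beyond what the construction of each alternative shows, the cause was not tested. Dim genes were measured with large errors (SE 0.32 for ARF1 and 0.58 for COPZ2), and how large a change could be called in them was not tested.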
